A study of Mus musculus with 19 samples.

Results

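The genes described here carry out DNA replication in S phase of the cell cycle: they license origins, form and activate the replicative helicase, copy and join the strands, supply deoxynucleotides, and rebuild chromatin behind the fork. A list of 44 such genes was given. Probe sets with a single gene symbol were found for 43 of them, among 22180 genes on the array, and each gene was read by the probe set with the highest mean over all 19 arrays; Rfc4 was not matched and is not analysed here. Of the 43, 38 had 1 probe set and 5 had 2. The genes were listed by their role in replication, with no cutoff on a measured value.

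The study compared thymocytes of C57BL/6 mice with and without Rptor, which encodes Raptor, the subunit that defines the kinase complex mTORC1. Rptor-/- cells came from Raptor fl/fl mice crossed to CD2-cre mice, in which a recombinase driven by CD2 sequences acts in lymphocytes, so the deletion is not limited to the populations sorted here; WT cells came from WT mice. The sorted populations were immature single-positive cells (ISP; CD8-positive cells without CD4 and TCRβ, which go on to become double-positive αβ cells; 3 Rptor-/- and 4 WT arrays), DN3a thymocytes (CD25-high cells without CD44, CD28, CD4, CD8 and T-cell receptors, before the αβ and γδ branches part; 3 and 3 arrays) and γδ T cells (3 and 3 arrays), which were gated by the absence of CD4, CD8, TCRβ, NK1.1 and Gr1. Each array was made from 12 ng of total RNA, and neither an animal's age nor sex was given. No label ties an array to one mouse or culture, so a p-value here measures spread between arrays, part of which may be technical.

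Replication starts at origins that are licensed in G1, when the origin recognition complex, Cdc6 and Cdt1 place the MCM ring on DNA. Entry into S phase turns that ring into an active helicase, and polymerases, a sliding clamp and its loader then copy both strands. Most of these genes are transcribed by E2F factors late in G1, and thymocytes divide in a burst as they pass from the DN3 stage through the ISP stage, so the mRNAs of the set are a usual readout of cycling cells in the thymus.

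The median signal over all probe sets of an array (log2) was 3.80 to 3.88 for the 7 ISP arrays but 6.03 to 6.13 for DN3a and γδ arrays. The labels do not say which arrays were normalized together, so this gap was taken as a sign of 2 separate normalizations: ISP levels were set against ISP levels only, and a signal of one gene was never set against that of another. Rptor, read by 1 probe set that need not lie in the deleted part, was 84.4% of WT in ISP cells, 66.9% in DN3a cells and 81.2% in γδ T cells (log2 differences of -0.24, -0.58 and -0.30). Rptor-/- and WT arrays overlapped for Rptor in ISP cells, at 6.34 on 1 array of each genotype. Some population markers could be read. Cd8a was 11.33 in WT ISP cells, a level that could not be set against other populations. All 8 measured DN3 markers were lower in WT γδ T cells than in WT DN3a cells (median -3.18). In the same comparison 4 of 5 measured γδ markers were higher (median 2.77). So were 5 of 6 mature αβ T markers (median 2.17) and 6 of 7 NK-cell markers (median 0.97), so the rise was not limited to γδ markers. The constant-region genes of the γδ receptor were not among the named probe sets used here. No library was dropped.

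Promoter letters are shown first because the choice of the list used no sequence, and many of the genes hold the same short motif. Windows of 300 bases (250 before and 50 after an annotated start, RefSeq, mouse build GRCm38.p6) were matched for 36 of the 43 genes. They were searched on both strands, overlapping matches included, for 4 forms of the E2F site: TTTCCCGC, TTTGGCGC, TTTCGCGC and TTTGCCGC. A match was found in the window of 16 of the 36 genes (44.4%), against 704 of 27025 genes with a window (2.6%). The genes' windows were rich in G and C, with a median of 59.2%; among all 10219 windows with at least that content the motif was found in 4.27%, against 36.4% of the genes' own 44 windows. A match is a string of letters and not a measured binding site.

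The stretches below lie upstream of the outermost annotated start of 4 genes, printed 5′ to 3′ on the gene's strand with the matches in capitals. No other gene of the set had a match in its window upstream of that start. Mcm6 has the most matches (3), Mcm5 and Rfc3 are among the genes with the smallest p in ISP cells, and Gins3 holds a match but passed no test. The stretches are chr1:128359715-128359845 (minus strand) for Mcm6, chr5:151651209-151651248 (minus strand) for Rfc3, chr8:75109326-75109397 (plus strand) for Mcm5 and chr8:95633488-95633555 (plus strand) for Gins3.
Mcm6: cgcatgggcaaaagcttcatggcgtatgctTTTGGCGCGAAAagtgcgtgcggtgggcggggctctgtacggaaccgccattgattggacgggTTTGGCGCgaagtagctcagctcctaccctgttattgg
Rfc3: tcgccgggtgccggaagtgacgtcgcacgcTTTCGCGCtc
Mcm5: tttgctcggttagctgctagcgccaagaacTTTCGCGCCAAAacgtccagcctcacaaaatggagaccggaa
Gins3: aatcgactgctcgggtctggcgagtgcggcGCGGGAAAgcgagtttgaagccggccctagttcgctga
The first run of capitals in Mcm6, like the run in Mcm5, holds 2 overlapping matches on opposite strands, and the match in Gins3 is on the opposite strand only. Rfc3 has a second match past its start, which is not shown.

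In ISP cells 8 of the 16 genes with a match and 10 of the 20 without one passed the test described next, with median log2 differences of -0.37 and -0.32. In γδ T cells the counts were 10 of 16 and 12 of 20, with medians of -0.41 and -0.43. Between WT γδ and WT DN3a cells they were 11 of 16 and 10 of 20, with medians of -0.46 and -0.29, and in DN3a cells 0 of 16 and 1 of 20, with medians of -0.18 in both. None of these differences between genes with and without the motif was tested.

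Differences are log2 signal in Rptor-/- minus WT, fitted with limma over all 22180 genes and called where the Benjamini-Hochberg adjusted p was under 0.05. Across the 43 genes every called difference was a decrease. In Rptor-/- ISP cells 21 genes were lower and none was higher, against 6.57% of all genes called lower. In Rptor-/- γδ T cells 27 were lower and none was higher, against 1.28%. In Rptor-/- DN3a cells 1 was lower, against 0.271%. Fewer cells in S phase and less of each mRNA per cell cannot be told apart in sorted bulk samples.

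**Figure D1:**
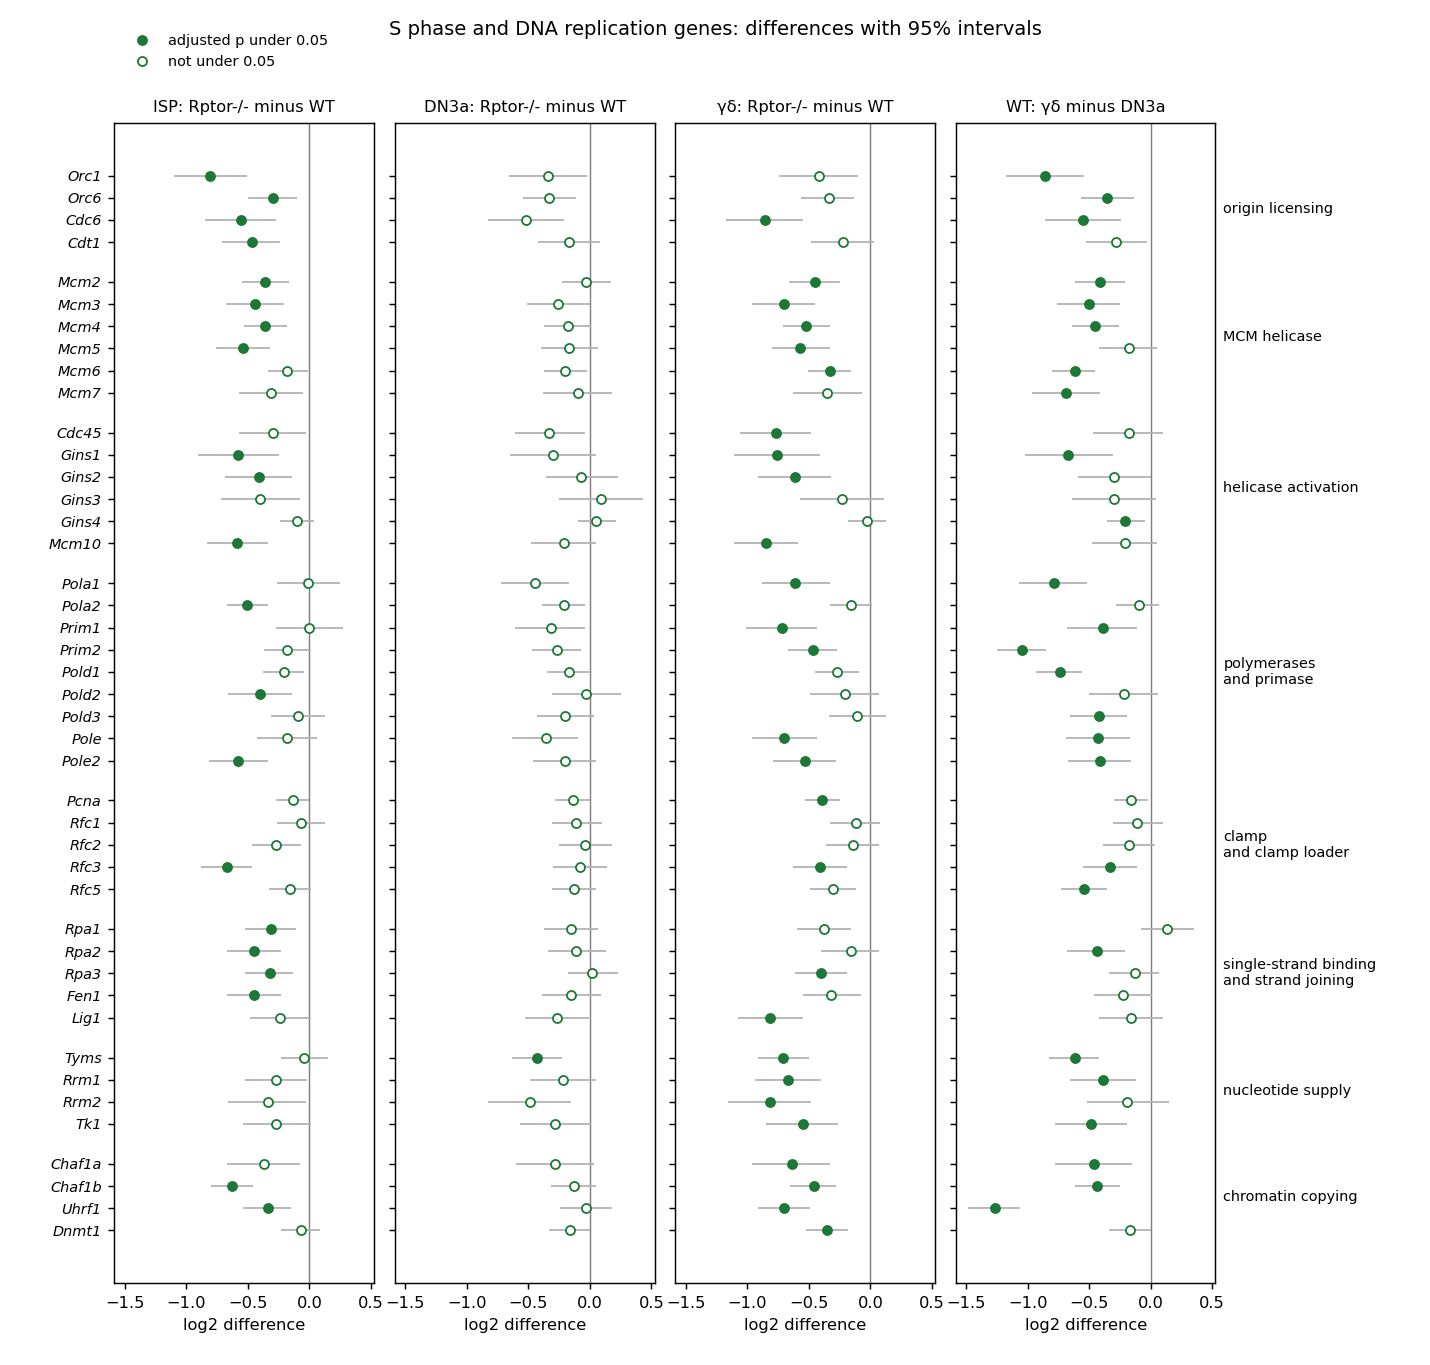
Log2 differences of the 43 genes in the 4 comparisons, ordered by role; points are limma estimates, bars their 95% intervals, and filled points have an adjusted p under 0.05. Nearly all points lie left of 0, with 21 filled in ISP cells, 1 in DN3a cells, 27 in γδ T cells and 26 between WT γδ T cells and WT DN3a cells.

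The first question was how replication genes of ISP cells, which follow the αβ route, differed without Rptor. All 43 genes were below WT as deposited, with a median of -0.32 against -0.004 over all genes; 4 of them (Dnmt1, Pola1, Prim1 and Tyms) were above 0 by at most 0.05 after quantile normalization of the ISP arrays. The licensing genes fell together: all 4 were called, led by Orc1, a subunit of the origin recognition complex, at 57.2% of the WT signal. The call of Orc6 was lost without any 1 of 5 arrays, and that of Cdc6 without Rptor-/- array 3. None of the 4 genes of deoxynucleotide supply was called. The 2 genotypes did not overlap for 28 of the 43 genes, all lower in Rptor-/-, against 8.95% of all genes.

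Orc1 was 6.01, 5.95 and 6.09 on the 3 Rptor-/- ISP arrays and 6.76, 7.09, 6.46 and 6.98 on the 4 WT arrays. The highest Rptor-/- array thus lay well under the lowest WT array, and the WT arrays were themselves spread widely. The difference was -0.81 (SE 0.14, limma adjusted p = 0.00059). Cdt1, which brings the MCM ring to the origin, was at 72% of WT (-0.47, SE 0.11), Cdc6, its partner in loading, at 67.7% (-0.56, SE 0.14), and Orc6 at 81.3% (-0.30, SE 0.10).

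The MCM genes encode the ring of the helicase, and 4 of 6 were called in ISP cells. Mcm5 was 8.45, 8.48 and 8.36 in Rptor-/- and 9.07, 9.16, 8.71 and 8.94 in WT arrays. No arrays overlapped, and the difference was -0.54 (SE 0.11, limma adjusted p = 0.00137). Mcm2 and Mcm4 were both at -0.36 and Mcm3 at -0.44. With the ISP arrays fitted alone the calls of Mcm2 and Mcm3 were lost. Mcm6, whose promoter has 3 motif matches, was at -0.18 (adjusted p = 0.181), and Mcm7 at -0.31 with WT arrays from 8.28 to 8.98.

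Of the genes that switch the ring on, 3 of 6 fell: Mcm10, needed to activate the helicase, to 66.6% (-0.59, SE 0.12), and the GINS subunit genes Gins1 (-0.58) and Gins2 (-0.41). Cdc45, the third helicase component beside MCM and GINS, was at -0.30 and Gins3 at -0.40, neither called, and Gins4 was at -0.10 with a 95% interval of -0.24 to 0.04. The members of the GINS complex thus had values from -0.58 to -0.10 in the same arrays. The call of Gins2 was lost without any 1 of 5 arrays and that of Gins1 without any 1 of 3.

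Polymerase genes split by subunit in ISP cells, with 3 of 9 called. Pola2, the second subunit of polymerase α, was 7.49, 7.51 and 7.47 in Rptor-/- and 8.03, 8.08, 7.88 and 7.99 in WT arrays. Each genotype was tight and the gap between them was wider than either (-0.51, SE 0.08, limma adjusted p = 0.00013). Pola1, the catalytic subunit of the same enzyme, was at -0.01, with a 95% interval of -0.26 to 0.25. Pole2, a subunit of polymerase ε, was 6.79, 6.95 and 6.76 in Rptor-/- and 7.45, 7.46, 7.45 and 7.32 in WT arrays, again without overlap (-0.58, SE 0.11, limma adjusted p = 0.00143), while the catalytic Pole was at -0.18. Pold2, of polymerase δ, was called at -0.40, with Pold1 at -0.21 and Pold3 at -0.09. The call of Pold2 was lost without any 1 of 5 arrays and with the ISP arrays fitted alone. The primase genes Prim1 and Prim2 were at -0.00 and -0.18.

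The clamp gene Pcna was not called in ISP cells (91.1% of WT, -0.13, adjusted p = 0.218 by limma). Of the loader genes only Rfc3 was called. It was 7.80, 7.68 and 7.65 in Rptor-/- and 8.39, 8.26, 8.46 and 8.42 in WT arrays, without overlap (-0.67, SE 0.10, limma adjusted p = 9.1e-05); Rfc1, Rfc2 and Rfc5 lay from -0.27 to -0.07. The 3 subunits of the single-strand binding protein RPA were all called, Rpa2 at 73.1%, Rpa1 at 80.5% and Rpa3 at 80% of WT. The call of Rpa1 was lost without any 1 of 6 arrays and that of Rpa3 without any 1 of 3. Rpa2 and Rpa3 also lost theirs when the ISP arrays were fitted alone. Fen1, the nuclease that trims Okazaki fragments, was called at 73.1%. Lig1, the ligase that seals them, was at -0.24 (adjusted p = 0.252).

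Chromatin genes behaved unevenly in ISP cells. Chaf1b, of the histone chaperone CAF-1, was 7.51, 7.53 and 7.33 in Rptor-/- and 8.19, 8.12, 7.90 and 8.13 in WT arrays. It had the smallest p of the set (-0.63, SE 0.08, limma adjusted p = 3e-05). Uhrf1, which guides maintenance methylation to new DNA, was called at -0.34, its partner Dnmt1 was at -0.07, and Chaf1a at -0.37 was not called. The call of Uhrf1 was lost without any 1 of 3 arrays and with the ISP arrays fitted alone. Tyms, Rrm1, Rrm2 and Tk1, which supply deoxynucleotides, were at -0.04, -0.27, -0.34 and -0.27; the 95% interval for Tyms, thymidylate synthase, was -0.23 to 0.15. Pola1, Prim1 and Tyms are singled out here after their values were seen.

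Rptor-/- ISP array 3 carried much of the count: without it 10 genes were called and the median was -0.26, and without any other single array between 15 and 21 were called. With the ISP arrays fitted alone 15 were called. The calls of Orc1, Cdt1, Mcm5, Mcm10, Pola2, Pole2, Rfc3 and Chaf1b held under every alternative and with each array left out.

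Other lists also held calls in the ISP arrays. Over all genes 6.57% were called lower and 5.87% higher, so 1 call in a list of 8 or 9 genes is not far from those shares. Of 16 immediate early genes, which respond to handling and to signalling, 11 were lower in Rptor-/- (summed signal 1722 to 2045 against 3464 to 6294 in WT). Of 8 DN3 markers 5 were higher and 1 lower (2406 to 2638 against 1717 to 1769), of 8 ISP and double-positive markers 3 were higher (10154 to 10725 against 7481 to 9066), and of 5 γδ markers 2 were lower (353 to 370 against 693 to 824). Among B-cell markers 1 of 8 was lower (1463 to 1559 against 1834 to 2065) and among myeloid markers 2 of 11 (189 to 209 against 229 to 301). T lineage markers were higher for 2 of 7 genes (14706 to 15091 against 13269 to 14246). Of 9 dendritic-cell markers 1 was called higher, though the summed signal was not higher (602 to 665 against 660 to 718). Of 9 stroma markers 1 was higher (343 to 370 against 293 to 323). Of 6 mature αβ markers 1 was higher and 1 lower (838 to 946 against 655 to 1066). Their part in the result was not tested.

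The γδ comparison asked the same of cells on the other branch. All 43 genes were below WT (42 with arrays centred on their medians, where Gins4 was at 0.01), with a median of -0.45 against 0.004 over all genes. The 4 deoxynucleotide genes and the 4 chromatin genes were all called, and so were 5 of 6 MCM genes. Licensing gave 1 call of 4, Cdc6 at 55.3% of WT (-0.86, SE 0.15). All 4 licensing genes were still below WT without overlap of the genotypes (median -0.38), and 3 had an unadjusted p under 0.05 by limma. Genotypes did not overlap for 35 genes, all lower in Rptor-/-, against 8.78% of all genes.

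Tyms was 8.65, 8.65 and 8.82 on the Rptor-/- γδ arrays and 9.34, 9.43 and 9.46 on the WT arrays. Each WT array was above each Rptor-/- array by more than the spread of either group (-0.71, SE 0.10, limma adjusted p = 0.00025). Rrm2 and Rrm1, the ribonucleotide reductase subunits, were at 56.6% and 63% of WT (-0.82 and -0.67), and the thymidine kinase gene Tk1 at 68.1% (-0.55). The call for Tk1 was lost without any 1 of 5 arrays.

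Uhrf1 was 9.40, 9.57 and 9.69 in Rptor-/- and 10.15, 10.34 and 10.27 in WT arrays. The groups stood apart (-0.70, SE 0.10, limma adjusted p = 0.00045). Dnmt1 was at -0.35, Chaf1a at -0.64 and Chaf1b at -0.46, all called. All 4 chromatin genes were thus lower in γδ T cells without Rptor.

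Helicase genes were among the lowest. Mcm10 was 7.22, 7.09 and 7.43 in Rptor-/- and 7.99, 8.17 and 8.15 in WT arrays, without overlap (-0.85, SE 0.13, limma adjusted p = 0.00052). Mcm3 was 9.43, 9.23 and 9.66 against 10.09, 10.10 and 10.23, again without overlap (-0.70, SE 0.12, limma adjusted p = 0.0024). The other called ring genes were Mcm5 at 67.4%, Mcm4 at 69.8%, Mcm2 at 73% and Mcm6 at 79.3% of WT, and Mcm7 was at -0.35 (adjusted p = 0.185). Cdc45 was at 58.6% and Gins1 and Gins2 at 59.2% and 65.3%, while Gins3 (-0.23) and Gins4 (-0.03, 95% interval -0.18 to 0.13) were not called.

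Both primase genes fell in γδ T cells, Prim1 to 60.7% and Prim2 to 72.1% of WT, together with the catalytic polymerase genes Pola1 (65.6%) and Pole (61.7%) and with Pole2 (69%). None of the 3 polymerase δ genes was called (Pold1 -0.27, Pold2 -0.21, Pold3 -0.11), nor was Pola2 (-0.16). A second probe set for Pole gave 0.07 in place of -0.70, so that gene is uncertain. Lig1 was 9.36, 9.33 and 9.64 in Rptor-/- and 10.18, 10.34 and 10.27 in WT arrays, without overlap (-0.82, SE 0.13, limma adjusted p = 0.00085). Pcna was 11.46, 11.37 and 11.42 against 11.80, 11.83 and 11.80; this change was small and very even (-0.39, SE 0.07, limma adjusted p = 0.00222). Rfc3 (-0.41) and Rpa3 (-0.40) were called as well, but each call was lost without any 1 of 5 arrays. A second probe set for Rpa3 gave -0.18, and its call was lost with the mean of both probe sets. Rpa1 was at -0.38 (limma adjusted p = 0.0538), Fen1 at -0.32, Rpa2 at -0.16 and the other loader genes from -0.30 to -0.12.

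The count in γδ T cells was 17 without WT array 2, 18 without Rptor-/- array 1 or array 2, and 18 when only the γδ arrays were fitted. The calls of Cdc6, Mcm3, Mcm4, Mcm5, Cdc45, Mcm10, Prim1, Pcna, Lig1, Tyms, Rrm2, Chaf1b and Uhrf1 held under every alternative and with each array left out. ISP and double-positive markers were lower in the Rptor-/- γδ arrays for 2 of 8 genes (Cd8b1 at -1.72 and Cd8a at -0.53; summed signal 2416 to 2615 against 3088 to 3196). Summed B-cell markers were 4810 to 5307 against 6091 to 6603, with none of 8 called (4 at an unadjusted p under 0.05 by limma). Of 16 immediate early genes 1 was higher (10768 to 12414 against 8409 to 9990). Over all 22180 genes 393 were called higher and 284 lower. Also higher were 1 of 9 dendritic-cell markers (Batf3, 2429 to 2531 against 1858 to 2194) and 1 of 8 DN3 markers (Dtx1, 2854 to 3399 against 2521 to 2591). Of 6 mature αβ markers 1 was called higher (Foxp3), though the summed signal was not higher (5165 to 5655 against 5590 to 5897). Of 7 NK-cell markers 1 was lower (Gzma, 5946 to 6291 against 6155 to 6435). Their part in the result was not tested.

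**Figure D2:**
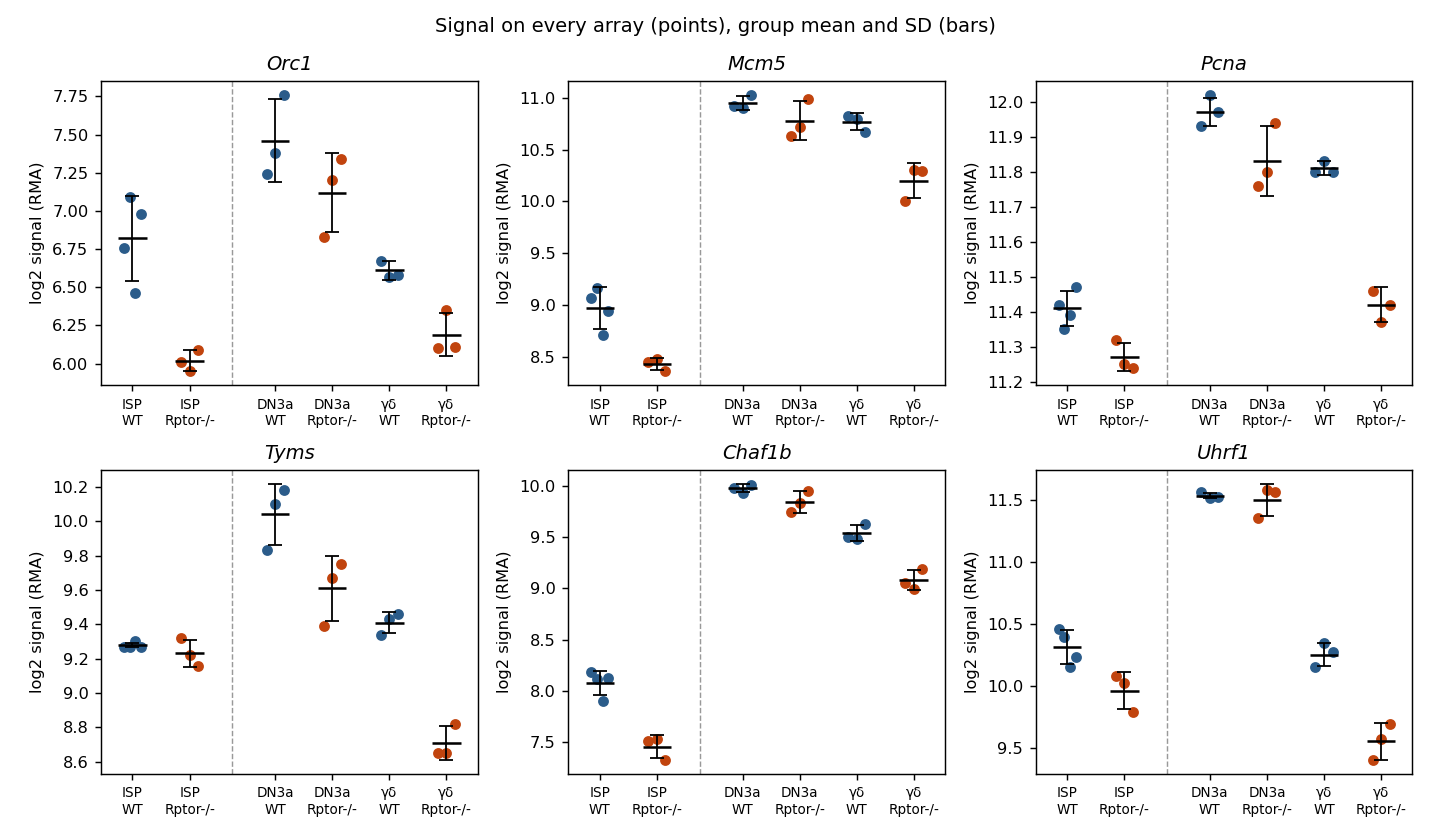
Log2 RMA signal of 6 of the genes on every array, by population and genotype; points are arrays, long bars group means and whiskers 1 SD, and ISP arrays stand left of the broken line because their array medians differ from those of the other arrays. Tyms separates the genotypes in γδ T cells (8.65 to 8.82 against 9.34 to 9.46) and not in ISP cells (9.16 to 9.32 against 9.27 to 9.30), and Orc1 does not overlap in ISP cells (5.95 to 6.09 against 6.46 to 7.09).

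In DN3a cells, which precede both branches, only Tyms was called. Differences were mostly small and negative: 40 of 43 genes were below WT under each scaling tried, with a median of -0.18 against 0.011 over all genes, and 14 had an unadjusted p under 0.05. Genotypes did not overlap for 9 genes, all lower in Rptor-/-, against 6.74% of all genes. Gins3, Gins4 and Rpa3 were above WT by 0.09, 0.05 and 0.02.

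Tyms was 9.39, 9.67 and 9.75 on the Rptor-/- DN3a arrays and 9.83, 10.10 and 10.18 on the WT arrays. The groups did not overlap, but the highest Rptor-/- and lowest WT array lay close (-0.43, SE 0.10, limma adjusted p = 0.0346). The call was lost when only the 12 DN3a and γδ arrays were fitted (limma adjusted p = 0.1). It was also lost when only DN3a arrays were fitted, when arrays were centred, and without any 1 of 4 arrays. The limma adjusted p for Tyms ran from 0.0109 to 0.193 over all settings. By unadjusted p the next genes were Cdc6 (-0.52, adjusted p = 0.124), Pola1 (-0.45, adjusted p = 0.137) and Orc6 (-0.33, adjusted p = 0.173), none past the threshold by limma. Rrm2 was at -0.49, Cdc45 at -0.33 and Pole at -0.36, also not called.

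The 3 Rptor-/- DN3a arrays were unequal. Taken as deviations from the WT mean, the median of the 43 genes was -0.32 on array 1, -0.22 on array 2 and -0.00 on array 3, and 43, 37 and 22 genes respectively lay below the WT mean. Without array 1 the median difference was -0.09, and without array 3 it was -0.27 with 4 genes called. Of 8 DN3 markers 2 were higher in Rptor-/- (summed signal 20539 to 21399 against 15993 to 16779), and of 8 B-cell markers 1 was lower, Ighm at -0.86 (2315 to 3216 against 4164 to 4763). Immediate early genes summed to 8407 to 10510 against 5292 to 7173, with none of 16 called (3 at an unadjusted p under 0.05 by limma). Other calls were all higher in Rptor-/-: 2 of 5 γδ markers (Sox13 and Maf; 2518 to 2819 against 2472 to 2703), 1 of 7 T lineage markers (Cd3d; 33835 to 34534 against 30215 to 30904), 1 of 11 myeloid markers (Lyz2; 945 to 1051 against 894 to 958) and 1 of 9 stroma markers (Epcam at 0.67; 2535 to 2725 against 2508 to 2738). Over all 22180 genes 60 were called lower and 158 higher in this comparison. The part of these lists in the result was not tested.

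**Figure D3:**
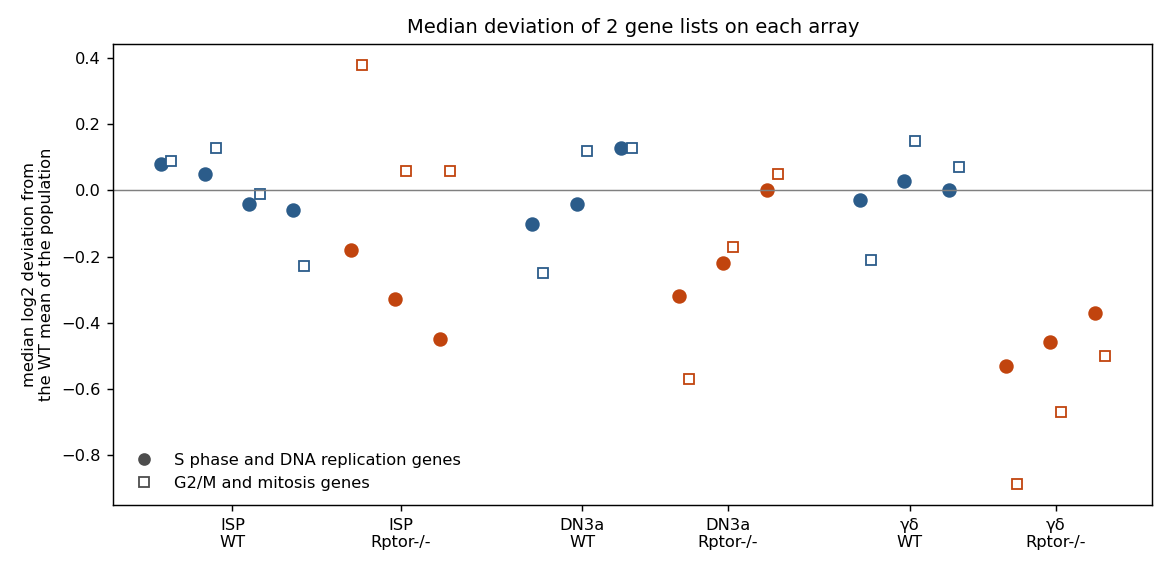
Median log2 deviation from the WT mean of the population, on each array, for the 43 replication genes (circles) and 24 G2/M and mitosis genes (squares); blue marks WT and orange Rptor-/-. All 3 Rptor-/- γδ arrays lie low for both lists, Rptor-/- ISP arrays are low for the replication genes only, and Rptor-/- DN3a arrays run from -0.32 to -0.00.

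The genes varied together from array to array. In ISP cells the median deviation on the 3 Rptor-/- arrays was -0.18, -0.33 and -0.45, and on the WT arrays it lay between -0.06 and 0.08. In γδ T cells it was -0.53, -0.46 and -0.37 in Rptor-/- against -0.03 to 0.03 in WT. Over deviations from the group means, the median correlation of the 903 pairs of genes was 0.59 across the 19 arrays, which share their normalization and RNA source within an array. In DN3a cells without Rptor the genes' median SD was 0.184, against 0.113 for all genes; in WT γδ T cells it was 0.0815 against 0.101.

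Whether the genotype effect differed between γδ T cells and DN3a cells was tested directly by an interaction contrast in the limma fit of all 19 arrays. Uhrf1 was the only one of the 43 genes called, against 0.207% of all genes called lower. Its signal was 11.35, 11.58 and 11.56 in Rptor-/- and 11.56, 11.51 and 11.52 in WT DN3a arrays, so the DN3a genotypes overlapped (-0.03, 95% interval -0.24 to 0.18). The γδ effect was lower by 0.67 on the log2 scale (-0.67, SE 0.14, limma adjusted p = 0.0365). The call was lost without any 1 of 9 of the 12 arrays and with centred arrays (-0.62, adjusted p = 0.0778). Of the 43 genes 41 had a more negative value in γδ T cells (39 with centred arrays and 40 after quantile normalization), with a median of -0.28 against -0.010 over all genes, and 14 had an unadjusted p under 0.05, so most single genes did not show a difference between the populations that passed the test.

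ISP and γδ genotype effects share no arrays, and their difference was not tested because the array medians of the ISP set stand apart from those of the γδ arrays. Set side by side, 13 genes were called in both, which is 61.9% of the ISP calls and 48.1% of the γδ calls: Cdc6, Mcm2, Mcm3, Mcm4, Mcm5, Gins1, Gins2, Mcm10, Pole2, Rfc3, Rpa3, Chaf1b and Uhrf1. These include 4 ring genes and both called GINS genes. Among all 43 genes, 27 were called in γδ T cells and 21 in ISP cells. The shares of 61.9% and 48.1% are thus close to those of the whole set, so they do not point to a shared core of genes. The overlap was not tested. Called in ISP cells alone were Orc1, Orc6, Cdt1, Pola2, Pold2, Rpa1, Rpa2 and Fen1, and for Orc1, Orc6, Rpa1 and Fen1 the γδ value lay between -0.42 and -0.32. Called in γδ T cells alone were 14 genes, among them all 4 nucleotide genes, both primase genes and Pola1. Of the 14, Mcm6, Cdc45, Pcna, Rrm1, Rrm2 and Chaf1a were also lower in ISP cells (-0.37 to -0.13). Each of them had an unadjusted p under 0.05 by limma there. Tyms, Pola1 and Prim1 lay from -0.04 to -0.00 in ISP cells. Mcm7, Gins3, Gins4, Pold1, Pold3, Rfc1, Rfc2 and Rfc5 were called in neither.

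**Figure D4:**
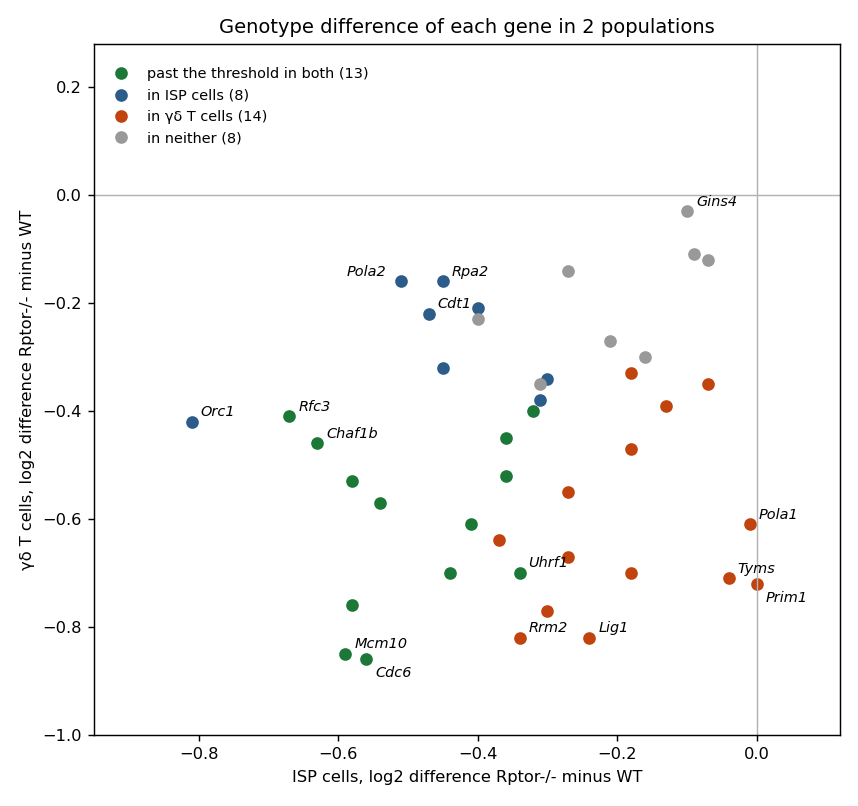
Genotype difference (log2, Rptor-/- minus WT) of the 43 genes in ISP cells (horizontal) and γδ T cells (vertical), coloured by where the limma adjusted p was under 0.05. Tyms, Pola1 and Prim1 lie near 0 in ISP cells and from -0.72 to -0.61 in γδ T cells, and Orc1 and Rfc3 lie lowest in ISP cells.

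WT γδ T cells were then compared with WT DN3a cells, to see how the set stands in the 2 populations without the deletion. This comparison uses the WT arrays of both genotype comparisons above, so its values are given on their own. In WT γδ T cells 26 of the 43 genes were lower and none was higher, against 12.3% of all genes called lower; 42 genes were below DN3a under each scaling, with a median of -0.39 against -0.004 over all genes. Rpa1 alone was above it, at 0.13 (95% interval -0.08 to 0.35). Populations did not overlap for 31 genes, all lower in γδ T cells, against 19.6% of all genes.

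Uhrf1 had the largest difference. It was 10.15, 10.34 and 10.27 on the WT γδ arrays and 11.56, 11.51 and 11.52 on the WT DN3a arrays, which left 41.3% of the DN3a signal (-1.27, SE 0.10, limma adjusted p = 6.1e-09). Chaf1b and Chaf1a were at -0.44 and -0.46, both called, and Dnmt1 at -0.17 was not. Uhrf1 and Dnmt1, partners in maintenance methylation, therefore had very different values.

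Polymerase and primase genes gave 7 calls of 9. Prim2, the large primase subunit, was 8.72, 8.75 and 8.45 in γδ and 9.69, 9.63 and 9.75 in DN3a arrays, a gap far wider than the spread within either (-1.05, SE 0.10, limma adjusted p = 4.8e-08). Pold1, the catalytic subunit of polymerase δ, was 9.90, 9.94 and 9.89 against 10.64, 10.60 and 10.72, again without overlap (-0.74, SE 0.09, limma adjusted p = 1.5e-06). Pola1 was at 57.7% of DN3a, and Prim1, Pold3, Pole and Pole2 were between 74.3% and 76.2%. The call of Prim1 was lost without any 1 of 4 arrays. Pola2 (-0.10) and Pold2 (-0.22) were not called.

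Mcm6 was 10.82, 10.86 and 10.77 in γδ and 11.40, 11.42 and 11.51 in DN3a arrays, with each population tight (-0.62, SE 0.08, limma adjusted p = 8.6e-06). Mcm7 was at 61.9%, Mcm3 at 70.6%, Mcm4 at 73.2% and Mcm2 at 75.1% of DN3a, and Mcm5 was at -0.18 (adjusted p = 0.295). Of the licensing genes Orc1 (55.2%), Cdc6 (68.4%) and Orc6 (78%) were called and Cdt1 (-0.28) was not. Gins1 was at 63% and Gins4 at 86.7%, with Gins2 (-0.30), Gins3 (-0.30), Cdc45 (-0.18) and Mcm10 (-0.21) not called. The call of Gins4 was lost without any 1 of the 6 arrays.

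Tyms was 9.34, 9.43 and 9.46 in γδ and 9.83, 10.10 and 10.18 in DN3a arrays, without overlap (-0.62, SE 0.10, limma adjusted p = 4.6e-05). Tk1 was at 71.3% and Rrm1 at 76.2%, while Rrm2 (-0.19) was not called. The call of Rrm1 was lost without any 1 of 5 arrays. Rfc5, a loader subunit, was 8.74, 8.82 and 8.85 against 9.26, 9.30 and 9.48, also without overlap (-0.54, SE 0.09, limma adjusted p = 7.2e-05). Rfc3 (-0.33) and Rpa2 (-0.44) were called, and Pcna (-0.16), Rfc1 (-0.11), Rfc2 (-0.18), Rpa3 (-0.13), Fen1 (-0.23) and Lig1 (-0.16) were not. Without WT DN3a array 3, whose median deviation was 0.13, 16 genes were called and the median was -0.34; Orc1, Mcm2, Mcm3, Mcm4, Mcm6, Mcm7, Gins1, Pola1, Prim2, Pold1, Pold3, Rfc5, Rpa2, Tyms, Chaf1b and Uhrf1 held throughout. The populations differ in many other genes: 5 of 6 mature αβ T markers (summed signal 5590 to 5897 in γδ and 793 to 856 in DN3a arrays), 6 of 7 NK-cell markers (6155 to 6435 and 2418 to 2721) and 10 of 16 immediate early genes (8409 to 9990 and 5292 to 7173) were higher in γδ T cells. Their part in the result was not tested.

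Other genes of the same processes were read from further lists, given by counts and medians without a list test. Over all genes 6.57% were called lower and 5.87% higher in ISP cells. In γδ T cells 1.28% were called lower, and 393 of 22180 higher. Between WT γδ and WT DN3a cells the shares were 12.3% and 12.7%. Of 26 other origin and fork genes, 7 were lower in Rptor-/- ISP cells (median -0.13), among them Orc2 (-0.44), the polymerase ε subunit gene Pole3 (-0.49), and Rnaseh2a (-0.47) and Rnaseh2b (-0.53), subunits of the nuclease that removes RNA from DNA. In Rptor-/- γδ T cells 7 were lower (median -0.27), led by Gmnn, the inhibitor of Cdt1, at 57.1% of WT (-0.81, SE 0.12, limma adjusted p = 0.00071), with the checkpoint mediator Clspn (-0.63) and the fork genes Tipin (-0.70) and Dscc1 (-0.70). In DN3a cells none was called (median -0.19, 8 genes with an unadjusted p under 0.05 by limma).

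Nucleotide genes outside the set showed another pattern. Of 11, 4 were lower in Rptor-/- ISP cells: Dctpp1, which removes damaged dCTP (-0.68), Cad (-0.56) and Umps (-0.53), which make pyrimidines, and Shmt1, of folate metabolism (-0.59). In γδ T cells Dck, deoxycytidine kinase, was the 1 lower gene (-0.58, limma adjusted p = 0.00206). Between WT γδ and WT DN3a cells 8 were lower and 1 was higher: Samhd1, which breaks down dNTPs, was 10.18 in WT γδ and 5.45 in WT DN3a arrays (4.73, SE 0.14); its genotype differences were -0.05 in γδ and -0.15 in DN3a cells, neither called. The lower genes included Dctd (-0.88), Dtymk (-0.59) and Shmt1 (-1.04). In DN3a cells none of the 11 was called or had an unadjusted p under 0.05 by limma.

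Of 20 E2F and G1/S regulators, 4 were lower and 4 higher in Rptor-/- ISP cells (median -0.15). E2f4 (-0.40), E2f3, Tfdp1 and Ccne1 fell, and Tfdp2, a dimer partner of E2F, rose to 165% of WT (0.72, SE 0.08), with the pocket-protein genes Rbl2 (0.64) and Rbl1 and the repressor gene E2f7 (0.57). In Rptor-/- γδ T cells 6 were lower and 1 higher (median -0.23): Mybl2, an activator of mitotic genes, was at 62.2% of WT, E2f2 at 55.8% and Ccne1 at 64.3%, and E2f5 was at 134%. In WT γδ against WT DN3a cells 9 were lower and 3 higher, the latter Rb1 (0.78), Rbl2 (0.81) and Ccne1 (0.80). The 12.7% of all genes called higher there is not far from 3 of 20. In DN3a cells none was called, and 2 had an unadjusted p under 0.05 by limma. E2f1, singled out as the best known activator of the family, was at -0.23, -0.23 and -0.32 in ISP, DN3a and γδ cells without Rptor and was not called by limma in any of them.

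Of 12 other S-phase chromatin genes, 4 were lower in Rptor-/- ISP cells (Hells -0.59, Nasp -0.49, Fam111a -0.41 and Hat1 -0.36; list median -0.19) and 6 in Rptor-/- γδ T cells (median -0.36), where the histone chaperone gene Asf1b was at 60.2% and the chromatin remodeller gene Hells at 58.6% of WT. Between the WT populations 7 were lower in γδ T cells, led by Cdca7 at 32.2% of DN3a (-1.64, SE 0.09), and 2 were higher, Asf1b (0.53) and Fam111a (0.49). The 12.7% of all genes called higher there is not far from 2 of 12. Of 13 repair genes that act at forks, 3 were lower in Rptor-/- ISP cells (Ung -0.47, Exo1 -0.42 and Blm -0.37; median -0.19), 6 in γδ T cells (median -0.44; Chek1 at 58.3%, Brip1 at 58.8% and Exo1 at 60.2% of WT) and 6 between the WT populations (median -0.35; Exo1 at 57% of DN3a). In DN3a cells no gene of either list was called, with 5 and 7 at an unadjusted p under 0.05 by limma.

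Genes of G2/M and mitosis were read in the same way. In Rptor-/- ISP cells, where 21 replication genes were lower, 4 of 24 mitotic genes were higher and none lower (median 0.13), against 5.87% of all genes called higher: Cenpf at 199% of WT (0.99, SE 0.17, limma adjusted p = 0.00046), Cenpe (0.75), Nusap1 (0.62) and Kif23 (0.62). Without Rptor-/- ISP array 1, and with the ISP arrays fitted alone, 2 were higher. In Rptor-/- γδ T cells 15 of 24 were lower (median -0.70), among them Ccnb2 at 57%, Top2a at 59%, Mki67 at 59.8% and Birc5 at 51.5% of WT. That count was 4 without WT array 2, 7 without WT array 3, 6 without Rptor-/- array 1 or array 2, and 17 without either other array, with medians from -0.84 to -0.59. In DN3a cells none was called (median -0.22, 5 with an unadjusted p under 0.05 by limma). Between WT γδ and WT DN3a cells 4 mitotic genes were higher in γδ T cells and none lower (median 0.22), Cenpa (0.63), Ube2c (0.81), Ccnb2 (0.53) and Tpx2 (0.41), against 12.7% of all genes called higher, a share not far from 4 of 24. It was 1 gene without WT DN3a array 1 and 2 without WT γδ array 2.

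On single arrays the mitotic median was 0.38, 0.06 and 0.06 above the WT mean on the 3 Rptor-/- ISP arrays and 0.09, 0.13, -0.01 and -0.23 on the 4 WT arrays. Arrays 2 and 3 thus lay within the WT range, and array 1, the highest, had the smallest shift of the replication genes (-0.18). On the Rptor-/- DN3a arrays it was -0.57, -0.17 and 0.05, in the same order as the replication genes, and on the γδ arrays -0.89, -0.67 and -0.50. Within groups the 2 medians followed each other (r = 0.89 over deviations from the group means of 19 arrays, which share the array).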

How the data were processed

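Gene expression was measured on 19 single-channel expression arrays of sorted mouse thymocytes. The values used are log2 signals deposited by the authors; RMA and Partek 6.6 are named per the submitters' processing notes, and further settings are not given in the sources used here. Of 41345 probe sets, 23521 had 1 gene symbol, 1814 several (left out) and 16010 were not named here; symbols were updated through Entrez IDs for 23328. One probe set per gene, that with the highest mean over all arrays, left 22180 genes, 1082 of which had several.

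A single model of 6 group means was fitted to all 19 arrays with limma 3.58.1 (lmFit and eBayes, R 4.3.3), with contrasts for genotype in each population, WT γδ against WT DN3a, and the γδ minus DN3a genotype effect. P-values were adjusted over all genes by Benjamini-Hochberg, threshold 0.05, and intervals are 95%. Percentages of WT describe array signal, in which RMA can compress differences. The number of arrays limits the precision. No array pair was a duplicate (smallest median absolute difference 0.0903). Tables and plots used Python 3.11.15, pandas 2.3.3 and matplotlib 3.10.9, and the fit was tested on simulated data.

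Array values are given for the 6 genes with the smallest p per comparison and direction, further values for 2 genes per role, and, from each other list, at most 4 genes by smallest p; values of the remaining genes complete the set. The genes, the 18 lists and the tests were chosen with earlier results of these data known. Alternatives changed the arrays fitted, centring, quantile normalization, the probe set rule, the filter on low signals and the replicate block, and left out each array.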

Additional observations from a re-analysis of the deposited data

Results flagged for a closer look

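Among the 4 WT ISP arrays, the group large enough for a check of single arrays, 2 of the 43 genes (4.65%) had an array far from the other 3; chance gives about 1 in 20. Pole2 was 7.32 on WT ISP array 4 and between 7.45 and 7.46 on the others, and the genotypes did not overlap with or without that array. Tyms was 9.30 on WT ISP array 3 and 9.27 on each of the others, a gap of little size in a gene that was very even in this group.

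For Uhrf1 the genotype effect in γδ T cells differed from that in DN3a cells by -0.67 (limma adjusted p = 0.0365, 95% interval -0.97 to -0.37). The call was lost without any 1 of 9 of the 12 arrays and with centred arrays. The 3 Rptor-/- γδ arrays were all below the 3 WT γδ arrays, and the DN3a genotypes overlapped.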

How the results depend on the processing

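No difference that passed the test changed sign among the genes given by array; of the 43 genes, uncalled values near 0 did so for Dnmt1, Pola1, Prim1 and Tyms in ISP cells (quantile normalization), for Gins4 in γδ T cells (centred arrays), and for Orc6 and Rfc1 (centred arrays) and Orc1 (quantile normalization) in the γδ minus DN3a effect. With each array left out in turn, the number of the 43 genes called ran from 10 to 21 in ISP cells, from 0 to 4 in DN3a cells, from 17 to 26 in γδ T cells, from 16 to 26 between the WT populations and from 0 to 2 for the γδ minus DN3a effect, whose median ran from -0.38 to -0.18. In DN3a cells 0 genes were called by limma when only the 12 arrays of the same set, only the DN3a arrays, or centred arrays were fitted, against 14 with an unadjusted p under 0.05 in the fit of all arrays; for the γδ minus DN3a effect 0 were called with centred arrays. Over all genes, fitting only the groups compared lowered the calls from 2759 to 1313 in ISP cells, from 218 to 144 in DN3a cells and from 677 to 345 in γδ T cells, and raised them from 5560 to 5831 between the WT populations; the cause was not tested. Centring moved the share of higher calls from 58.1% to 74.9% in γδ T cells and from 65.4% to 75.4% for the γδ minus DN3a effect, and quantile normalization moved it from 72.5% to 60% in DN3a cells, where the cause was not tested either. With the replicate number as a block 24, 1, 27 and 25 of the 43 genes were called in ISP, DN3a, γδ and WT γδ against WT DN3a comparisons, and 1 for the γδ minus DN3a effect; the block between the WT populations was added after seeing the data. Correlations of same-numbered arrays ran from -0.10 to 0.24 over all genes and from -0.28 to 0.43 over the 43 genes (0.32 and 0.43 for DN3a arrays 1 and 3); not every pair of a comparison was above 0.1 over all genes, so the numbers were not taken as pairs. Counts of mitotic genes under each setting were added after seeing the data. The small number of arrays, the amplified RNA and the different array medians of the ISP arrays limit what can be compared.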
